A study of Mus musculus with 16 samples.

Results

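Transcripts of 35 genes of meiotic chromosome pairing, recombination and spermatocyte progression were examined in RNA sequencing of mouse spermatozoa. The genes were taken by name from a list of synaptonemal complex, cohesin, break formation, strand exchange, crossover and progression genes, and 34 of them had a row among the 24062 genes of the count table. Rnf212 was not analysed here. Of the 16 libraries, 8 were from males fed a high-fat diet (HFD, a modified D12492 diet rich in fat and calories) and 8 from males fed the matching control diet (CD). Feeding began at an age of 3 weeks in both groups and lasted 9 weeks. Strain and genotype were not given in the sources used here. Motile sperm were isolated and sonicated, and 2 ng of RNA per library was amplified to cDNA, of which 250 ng entered the library. The series concerns effects of parental obesity on the early embryo, and the comparison asks whether the diet of the father goes with other levels of these transcripts in his sperm.

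In meiotic prophase, homologous chromosomes break, pair and exchange DNA while the synaptonemal complex holds them together. Its lateral elements form on chromosome axes built with cohesin, and a transverse filament and a central element join the lateral elements. Spermatocytes make these proteins in the testis, well before the sperm leave it. In counts from a bulk preparation, fewer cells of a type and less RNA per cell cannot be told apart.

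Libraries differed in depth and in what they held. Gene counts per library ran from 1882555 to 5153818 in HFD and from 3172721 to 7783981 in CD. HFD 4 and HFD 8 stood apart: 8.02% and 9.16% of their reads fell in genes, against 10.3% to 20.1% in the other 14 libraries. Their epididymal transcripts, from the duct in which sperm mature, summed to 15302 and 10807 CPM (read counts scaled to a common library size), against 34294 to 86742 CPM elsewhere. The sum of these 16 genes did not hold for each of them. HFD 8 was the highest library for Defb20 at 363 CPM, and had 1871 CPM of Gpx5 and 101 CPM of Cst11. In HFD 4 these had 1.19, 14.9 and 0 CPM, and 4 of the 16 genes were at 0 in each of the 2 libraries. Log2 fold changes are given with and without these 2 libraries. They were singled out because an earlier account of the series had them apart in germ cell transcripts.

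Meiotic transcripts were present in every library, and HFD 4 and HFD 8 held by far the most. Together the 34 genes reached 3092 CPM in HFD 4, 2544 CPM in HFD 8 and 275 to 629 CPM in the other 6 HFD libraries. In CD they summed to between 259 CPM in CD 4 and 866 CPM in CD 5. The mean was 1073 CPM ± 1093 in HFD and 524 CPM ± 210.2 in CD (SD, n = 8 each), a log2 ratio of 1.04. Without HFD 4 and HFD 8 the HFD mean was 492 CPM ± 132 (SD, n = 6) and the log2 ratio -0.09, and without HFD 4 alone the ratio was 0.58. The diets overlapped, with 6 HFD libraries inside the range of the CD libraries.

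**Figure D1:**
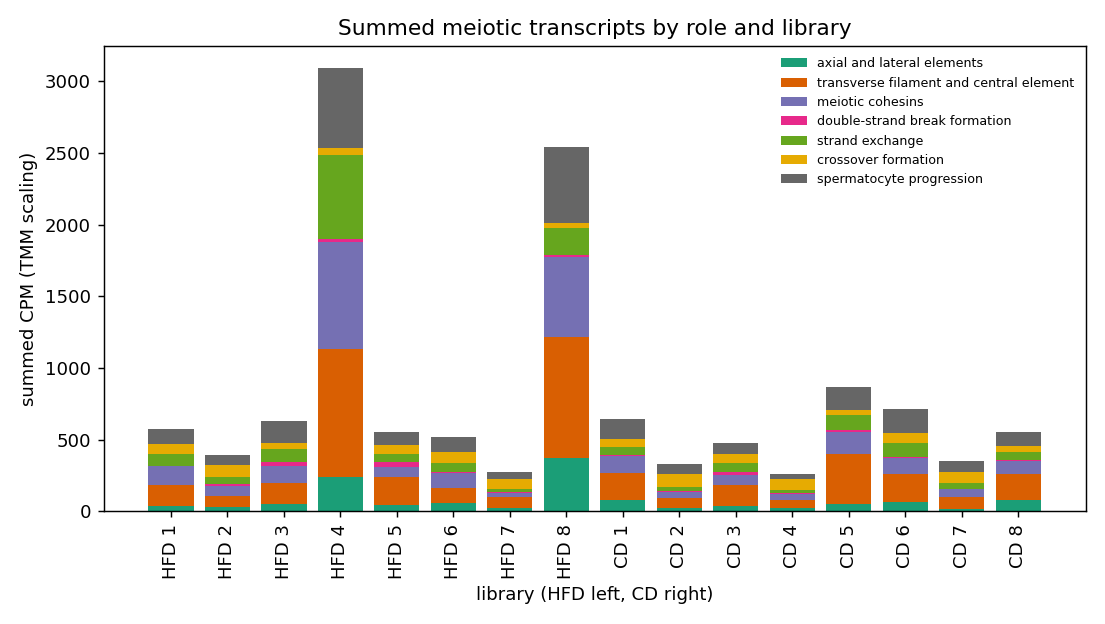
Summed CPM (vertical axis, linear from 0) of the 34 meiotic genes in each library (horizontal axis, HFD left and CD right), stacked by role; each bar is 1 library. HFD 4 at 3092 CPM and HFD 8 at 2544 CPM stand above the other 14 libraries, which lie between 259 and 866 CPM.

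The central element supplied the most abundant transcripts per length. Over all libraries and per kilobase (kb) of exon, Syce2 led with a mean of 75.4 CPM per kb, followed by Syce1 with 39.2, Psmc3ip with 24.5, Syce3 with 23.4 and Sycp3 with 20.3 CPM per kb. In both diets Syce2 had the highest mean level, at 97.2 CPM per kb in HFD and 53.6 in CD. Its SD over the HFD libraries, 229 CPM, was above its mean of 191 CPM there. Psmc3ip, Syce3 and Sycp3 lay within 20.3 to 24.5 CPM per kb and did not separate beyond their spread.

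**Figure D2:**
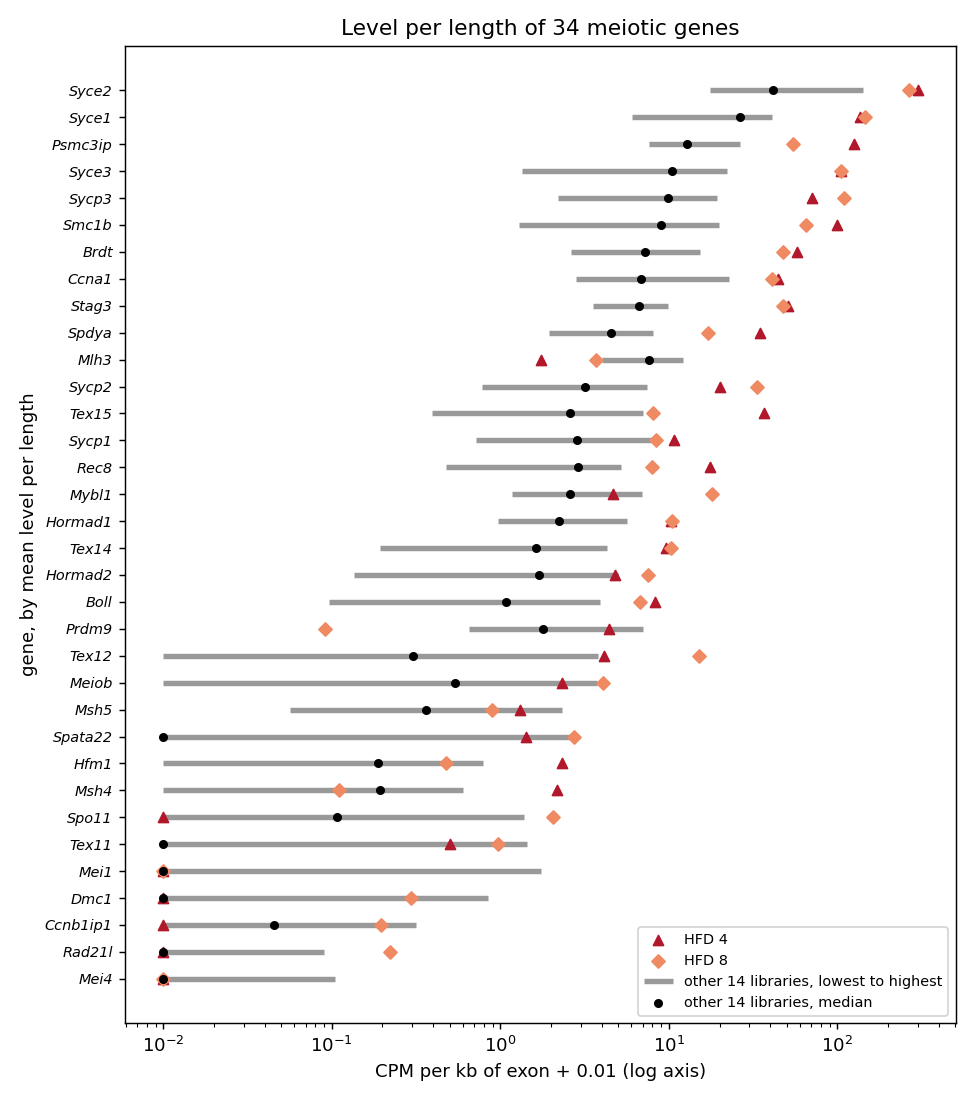
Level per length of the 34 meiotic genes (CPM per kb of exon plus 0.01, log axis), genes ordered by their mean; triangles are HFD 4, diamonds HFD 8, grey lines the range and black dots the median of the other 14 libraries. Symbols at the left edge are libraries with 0 counts, and Mlh3 and Prdm9 are the genes among the 21 tested for which HFD 8 lies at or below the median of the other libraries.

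Promoters of the members are shown as background on their sequence, and a link to the transcript levels was not tested. Of the 34 genes, 29 had a promoter in RefSeq's table for GRCm38.p6, a window of 250 bases before to 50 bases after the start. Each line gives the bases upstream of the start that lie in no annotated exon, 5′ to 3′, for the most abundant tested gene per length of the synaptonemal complex (Syce2), of recombination (Psmc3ip) and of progression (Brdt), and for Sycp3, which was added after its values were seen. Capitals mark the E2F core TCCCGC and the E-box CACGTG, on either strand, and matches after the start are not shown. Syce2's stretch is chr8:84871861-84872110, plus strand, that of Psmc3ip chr11:101095437-101095685, minus strand, that of Brdt chr5:107330944-107331158, plus strand, and that of Sycp3 chr10:88459337-88459568, plus strand. The table holds 2 promoters of Syce2: the first is shown, and the second, with its window at chr8:84872008-84872307, is the one that carries CACGTG and CNCCTCAG.
Syce2: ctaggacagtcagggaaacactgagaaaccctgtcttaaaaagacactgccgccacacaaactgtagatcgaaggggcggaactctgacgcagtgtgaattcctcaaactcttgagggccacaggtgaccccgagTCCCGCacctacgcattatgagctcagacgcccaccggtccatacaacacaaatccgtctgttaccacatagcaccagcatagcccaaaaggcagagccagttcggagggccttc
Psmc3ip: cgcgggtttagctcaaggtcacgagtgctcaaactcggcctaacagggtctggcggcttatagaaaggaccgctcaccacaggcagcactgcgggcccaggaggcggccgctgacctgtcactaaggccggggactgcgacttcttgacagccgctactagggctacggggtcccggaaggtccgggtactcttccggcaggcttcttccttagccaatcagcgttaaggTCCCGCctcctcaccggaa
Brdt: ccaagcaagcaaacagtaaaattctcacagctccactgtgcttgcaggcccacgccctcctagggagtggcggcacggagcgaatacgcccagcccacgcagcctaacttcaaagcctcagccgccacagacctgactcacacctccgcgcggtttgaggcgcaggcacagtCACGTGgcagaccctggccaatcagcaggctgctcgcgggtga
Sycp3: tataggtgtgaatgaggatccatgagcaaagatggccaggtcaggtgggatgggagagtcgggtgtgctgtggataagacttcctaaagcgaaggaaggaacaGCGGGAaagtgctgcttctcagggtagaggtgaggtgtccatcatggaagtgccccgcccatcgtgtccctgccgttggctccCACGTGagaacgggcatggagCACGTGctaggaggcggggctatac

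Germ line promoters of this kind are known as targets of a repressive Polycomb complex that contains E2F6 and the E-box binding proteins MGA and MAX. In the 300-base windows, TCCCGC on either strand occurred in 18 of 29 members (62.1%) and in 22.05% of the 27025 genes of the table. CACGTG occurred in 8 members (27.6%) and in 8.09% of all genes. CNCCTCAG, the motif reported for STRA8, a factor that starts meiosis, occurred in 8 members (27.6%) and in 9.12% of all genes. AACNG, the core of MYB sites, occurred in all 29 members and in 82.4% of all genes. These matches are letters in a window and were compared with no test, nor with promoters of like base composition. A gene with several promoters counts once if any of them matches. Whether the matches bear on levels in any library was not tested.

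Of the 34 genes, 21 passed the expression filter and entered the diet comparison, and 0 of the 21 passed the threshold, an adjusted p of 0.05. Over all 13149 genes tested with edgeR's quasi-likelihood test, 0% passed. Log2 fold changes of HFD over CD were positive for 20 of the 21 genes, with a median of 0.99, while 49.6% of all genes tested were positive and their median was near 0. An unadjusted p under 0.05 was reached by 8 of the 21, each higher in HFD, against 10.2% of all genes at that p and higher in HFD. That count was 1 without HFD 4, 0 without HFD 8, 3 without CD 2, 4 without CD 4 or CD 7 and 5 without CD 3. The filter keeps genes with enough counts in at least 8 libraries, the size of a diet group. These counts therefore describe the 21 genes and not the whole list.

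Leaving out HFD 4 and HFD 8 removed the shared direction. The 2 libraries were picked for their germ cell transcripts, so lower values without them follow in part from that choice. Of the 21 genes, 12 were then positive and 9 negative, with a median of 0.03, and 49.2% of all 13448 genes tested were positive. An unadjusted p under 0.05 was reached by 0 of the 21 genes and by 2.17% of all genes. Without HFD 4 alone the median log2 fold change of the 21 genes was 0.54, and without HFD 8 alone it was 0.63. In 17 of the 21 genes the highest and next highest libraries were HFD 4 and HFD 8, and the exceptions were Hormad2, Prdm9, Mlh3 and Mybl1. In 0 of the 21 genes were the diets without overlap. Neither count was made over all tested genes, so they describe these genes and show no trait particular to them.

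**Figure D3:**
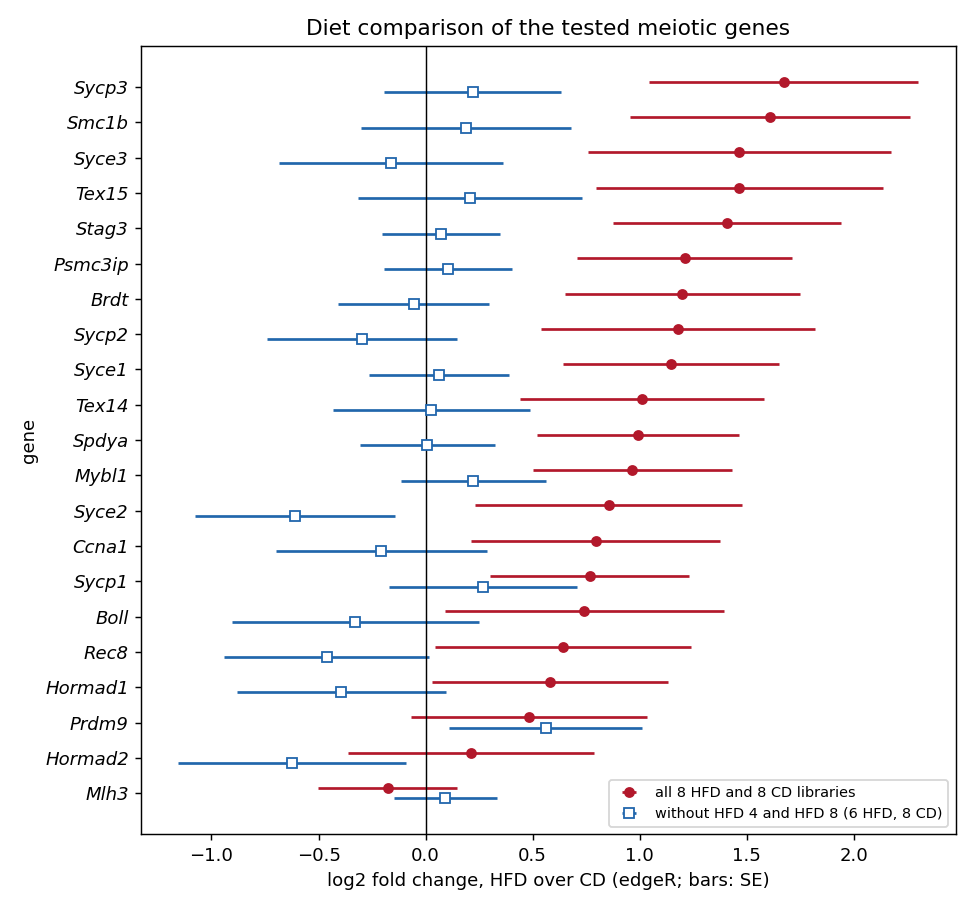
Log2 fold change of HFD over CD (horizontal axis) with its standard error for the 21 tested meiotic genes (vertical axis), from edgeR with all 16 libraries (filled circles) and without HFD 4 and HFD 8 (open squares). With all libraries 20 of 21 values are positive, and without the 2 libraries 12 are.

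Axis and lateral element genes were higher on average in HFD with all libraries, with 0 of 4 past the threshold. Without HFD 4 and HFD 8, 3 of the 4 were negative, with log2 fold changes of -0.30 for Sycp2, -0.39 for Hormad1 and -0.62 for Hormad2. Sycp3 (chromosome 10, 88459569 to 88473236 on GRCm38), a structural protein of the lateral element, ran from 6.28 to 139 CPM in HFD (median 18.3) and from 2.75 to 22.0 CPM in CD (median 13.4). HFD 4 with 89.3 CPM and HFD 8 with 139 CPM lay above all other libraries, and HFD 7 and CD 4 were the lowest of their diets. The log2 fold change was 1.67 ± 0.63 (SE; edgeR adjusted p = 0.434), and 0.22 ± 0.41 without the 2 libraries. Of its exonic bases, 52.2% are shared with exons of Chpt1 on the other strand, and the counting could not separate these if it ignored strand. Sycp2, its partner in the lateral element, has no such overlap and held 121 CPM in HFD 4 and 198 CPM in HFD 8, against 4.58 to 44.4 CPM elsewhere. Hormad1 and Hormad2, which mark unpaired axes, were lower, with at most 20.6 CPM in any library.

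Central element genes showed the same libraries at the top, and a high CD library beside them. Syce2 (chromosome 8, 84872111 to 84888221) encodes a core protein of the central element. It ran from 35.1 to 590.4 CPM in HFD (median 88.5) and from 34.5 to 278 CPM in CD (median 97.6). The highest CD value, in CD 5, lay above the 6 HFD libraries other than HFD 4 and HFD 8. Its log2 fold change was 0.86 ± 0.62 (SE; edgeR adjusted p = 0.643), and -0.61 ± 0.47 without HFD 4 and HFD 8.

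Syce1 (chromosome 7, 140777229 to 140787852), which links the central element to the transverse filament, ran from 23.4 to 212 CPM in HFD (median 39.6) and from 8.86 to 59.4 CPM in CD (median 36.3). Its HFD range apart from HFD 4 and HFD 8 ended at 51.7 CPM, inside the CD range. The log2 fold change was 1.15 ± 0.50 (SE; edgeR adjusted p = 0.434), and 0.06 ± 0.33 without the 2 libraries. Syce3 (chromosome 15, 89390174 to 89410503), a small protein that central element assembly needs, ran from 0.74 to 58.2 CPM in HFD (median 8.21) and from 1.98 to 12.3 CPM in CD (median 5.75). HFD 4 and HFD 8 were nearly equal for Syce3, at 57.7 and 58.2 CPM. Its log2 fold change was 1.47 ± 0.71 (SE; edgeR adjusted p = 0.448), and -0.16 ± 0.52 without them.

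Sycp1, the transverse filament protein, was less uneven than its partners. It had 38.1 CPM in HFD 4 and 30.0 CPM in HFD 8, but HFD 5 followed at 29.4 CPM, and CD reached 15.8 CPM. Its log2 fold change was 0.77 ± 0.47 (SE; edgeR adjusted p = 0.559), and 0.27 ± 0.44 without HFD 4 and HFD 8. Tex12, the partner of Syce2 in the central element, did not pass the filter. It had 44 counts in HFD 8, 15 in CD 1 and at most 7 in every other library.

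Meiotic cohesin subunits ranged from abundant Smc1b and Stag3 through low Rec8 to nearly undetected Rad21l. Smc1b (chromosome 15, 85064689 to 85131964), the meiotic form of an SMC cohesin subunit, ran from 10.7 to 405 CPM in HFD (median 54.2) and from 5.20 to 80.2 CPM in CD (median 33.3). HFD 4 exceeded HFD 8, with 405 against 262 CPM, and HFD 7 and CD 4 were the lowest libraries. HFD over CD, the log2 fold change was 1.61 ± 0.66 (SE; edgeR adjusted p = 0.434), and 0.19 ± 0.49 without the 2 libraries. Stag3 (chromosome 5, 138280240 to 138312393), the stromal antigen subunit of meiotic cohesin, ran from 20.3 to 293 CPM in HFD (median 50.05) and from 21.7 to 56.96 CPM in CD (median 38.1). Its log2 fold change was 1.41 ± 0.53 (SE; edgeR adjusted p = 0.434), and 0.07 ± 0.28 without the 2 libraries. Rec8, a kleisin that holds sister chromatids together, was low, at 51.2 CPM in HFD 4, 23.4 CPM in HFD 8 and at most 15.3 CPM elsewhere, with a log2 fold change of 0.64 ± 0.60 (SE; edgeR adjusted p = 0.728) and -0.46 without HFD 4 and HFD 8. Rad21l, the other meiotic kleisin, had 2 counts in all, 1 in HFD 8 and 1 in CD 2.

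**Figure D4:**
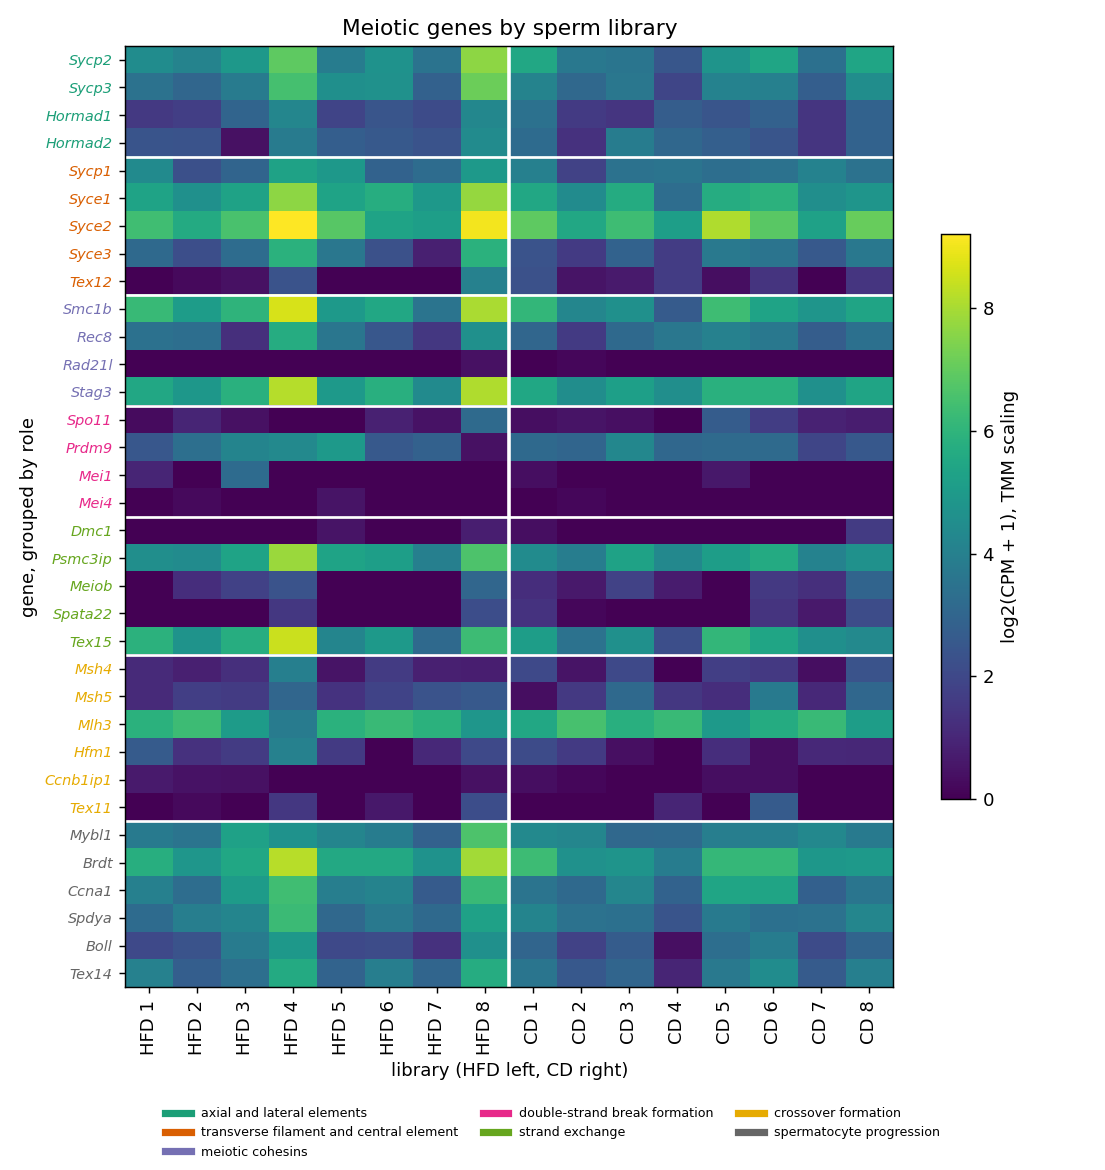
Log2(CPM + 1) of the 34 meiotic genes (rows, grouped by role and coloured by it) in the 16 libraries (columns, HFD left and CD right). HFD 4 and HFD 8 are the brightest columns for most genes, while Mlh3 is dimmer there and Dmc1, Mei1, Mei4, Rad21l and Ccnb1ip1 are dark in nearly all columns.

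Genes of break formation were nearly undetected, apart from Prdm9. Spo11, which cuts the DNA, had 23 counts in HFD 8, 21 in CD 5 and at most 8 elsewhere, with 0 in HFD 4. Mei1 and Mei4, which breaks depend on, had counts in 4 and 3 libraries, and 24 of the 32 Mei1 counts were in HFD 3. Prdm9 (chromosome 17, 15543079 to 15564354), the histone methyltransferase that places breaks, did not follow the other members. It ran from 0.35 to 30.2 CPM in HFD (median 7.77) and from 2.77 to 18.4 CPM in CD (median 7.65). HFD 5 was the highest library, HFD 4 had 19.05 CPM, and HFD 8 had 1 count. The log2 fold change was 0.49 ± 0.55 (SE; edgeR adjusted p = 0.772), and 0.56 ± 0.45 without HFD 4 and HFD 8.

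Strand exchange genes ranged from abundant to nearly undetected. Psmc3ip (chromosome 11, 101091823 to 101095436), which aids the recombinases in strand invasion, ran from 14.8 to 228 CPM in HFD (median 37.1) and from 13.9 to 47.99 CPM in CD (median 22.4). HFD 4 had 228 CPM and HFD 8 had 99.0 CPM, and the next HFD library, with 40.03 CPM, lay inside the CD range. HFD over CD, the log2 fold change was 1.21 ± 0.50 (SE; edgeR adjusted p = 0.434), and 0.11 ± 0.30 without the 2 libraries. It shares 21.2% of its exonic bases with Mlx on the other strand. Tex15, which male recombination needs, had 353 CPM in HFD 4 and 77.8 CPM in HFD 8, a ratio of 4.54, and 3.67 to 67.9 CPM elsewhere. For Tex15 the log2 fold change was 1.47 ± 0.67 (SE; edgeR adjusted p = 0.437), and 0.21 ± 0.52 without HFD 4 and HFD 8.

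Dmc1, the meiotic recombinase itself, had 10 counts over all 16 libraries, 6 of them in CD 8. It had 2 counts in HFD 8 and 0 in HFD 4, where 3 counts would amount to 1.79 CPM, the level that a count of 0 allows. Meiob and Spata22, which together bind single-stranded DNA, had at most 21 and 10 counts in any library, each highest in HFD 8 or CD 8. Of the exonic bases of Spata22, 80.5% are shared with Gm49340 on the same strand, so its count is uncertain. This and the other limits cover counting error only.

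Of the crossover genes analysed, Mlh3 was the sole gene of 6 to pass the filter, and it went against the rest. Mlh3 (chromosome 12, 85234520 to 85270599), which acts at crossovers and also serves DNA repair in other cells, ran from 13.1 to 78.7 CPM in HFD (median 57.9) and from 30.1 to 91.3 CPM in CD (median 51.9). HFD 4 was the lowest library of all, followed by HFD 8 with 27.9 CPM. The log2 fold change was -0.18 ± 0.32 (SE; edgeR adjusted p = 0.860), and 0.09 ± 0.24 without HFD 4 and HFD 8. Msh5, a partner of Msh4 in stabilising crossover intermediates, had 202 counts in all, with 47 in CD 6 and 28 in CD 3. Msh4 had 25 counts in HFD 4, 2 in HFD 8 and at most 12 elsewhere. Hfm1, a helicase, had 26 counts in HFD 4 and 27 in HFD 1, which amount to 15.5 and 5.18 CPM. Tex11, an X-linked gene of crossover formation, had 19 counts in CD 6 and 10 in HFD 8, and Ccnb1ip1, a ubiquitin ligase, had at most 3 counts in any library.

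All 6 progression genes passed the filter, each with a positive log2 fold change with all libraries and 0 past the threshold. Without HFD 4 and HFD 8, 3 of 6 were positive, with Mybl1 at 0.22, Spdya at 0.0075 and Tex14 at 0.03, and 3 were negative, with Brdt at -0.06, Ccna1 at -0.21 and Boll at -0.33. Brdt (chromosome 5, 107331159 to 107387058), a testis bromodomain protein that binds acetylated histones, ran from 24.8 to 295 CPM in HFD (median 46.04) and from 13.4 to 78.6 CPM in CD (median 29.04). HFD 4 and HFD 8 had 295 and 244 CPM, and CD 1, at 78.6 CPM, was next. HFD over CD, the log2 fold change was 1.20 ± 0.55 (SE; edgeR adjusted p = 0.437), and -0.06 ± 0.35 without the 2 libraries. Mybl1, the transcription factor A-MYB that drives pachytene genes, was uneven between them, with 25.0 CPM in HFD 4 and 97.6 CPM in HFD 8. HFD 3, with 37.6 CPM, lay above HFD 4 for this gene, and CD ran from 7.65 to 19.3 CPM. With all libraries, log2 fold changes were 0.97 ± 0.46 for Mybl1 and 0.99 ± 0.47 for Spdya (SE; edgeR adjusted p = 0.447 and 0.443). Ccna1, a cyclin of the end of prophase, had 81.5 and 74.6 CPM in HFD 4 and HFD 8. Spdya, an activator of Cdk2 at telomeres, had 76.8 and 37.7 CPM there, and shares 29.7% of its exonic bases with other genes. Boll, an RNA-binding protein of germ cells, and Tex14, a protein of the bridges between germ cells, had at most 29.2 and 51.3 CPM in any library.

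The makeup of the meiotic transcripts differed between HFD 4 and HFD 8. Strand exchange genes took 18.98% of the members' summed CPM in HFD 4 and 7.40% in HFD 8, and 7.501% to 15.01% elsewhere. Axis and lateral element genes took 7.79% in HFD 4 and 14.8% in HFD 8. Crossover genes took 1.69% and 1.59% in these libraries, against 4.07% to 29.99% in the other 14. Mlh3 alone took 0.42% in HFD 4 and 1.10% in HFD 8, against 3.48% to 28.9% in the other 14. In HFD 4, Hfm1 with 15.5 CPM and Msh4 with 14.9 CPM lay above Mlh3 with 13.1 CPM. Relative to the median of the other 14 libraries, the 21 tested genes stood at a median of 6.48-fold in HFD 4, from 0.226-fold for Mlh3 to 14.3-fold for Tex15. In HFD 8 the median was 5.93-fold, with Sycp3 highest at 11.1-fold and Mlh3 at 0.482-fold. Prdm9, with 1 count there, lay under the level of 3 counts and is given no fold. The median over all 13149 tested genes was 0.832-fold in HFD 4 and 0.919-fold in HFD 8.

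Spermatid transcripts moved with the meiotic ones, in other proportions. The 15 late spermatid genes, such as protamines, reached 14022 CPM in HFD 4, 47892 CPM in HFD 8 and 1636 to 10991 CPM elsewhere. Transcripts of 13 round spermatid genes reached 4150 CPM in HFD 4, 1386 CPM in HFD 8 and 135 to 705 CPM elsewhere. The ratio of meiotic to late spermatid CPM was 0.221 in HFD 4, 0.0531 in HFD 8 and 0.0501 to 0.202 in the other 14 libraries. HFD 4 therefore had the highest ratio to late spermatid CPM of all libraries, and HFD 8 lay near the lowest. Against round spermatid CPM the order was reversed. That ratio was 0.745 in HFD 4, the lowest of all libraries, 1.84 in HFD 8 and 0.945 to 2.13 elsewhere.

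**Figure D5:**
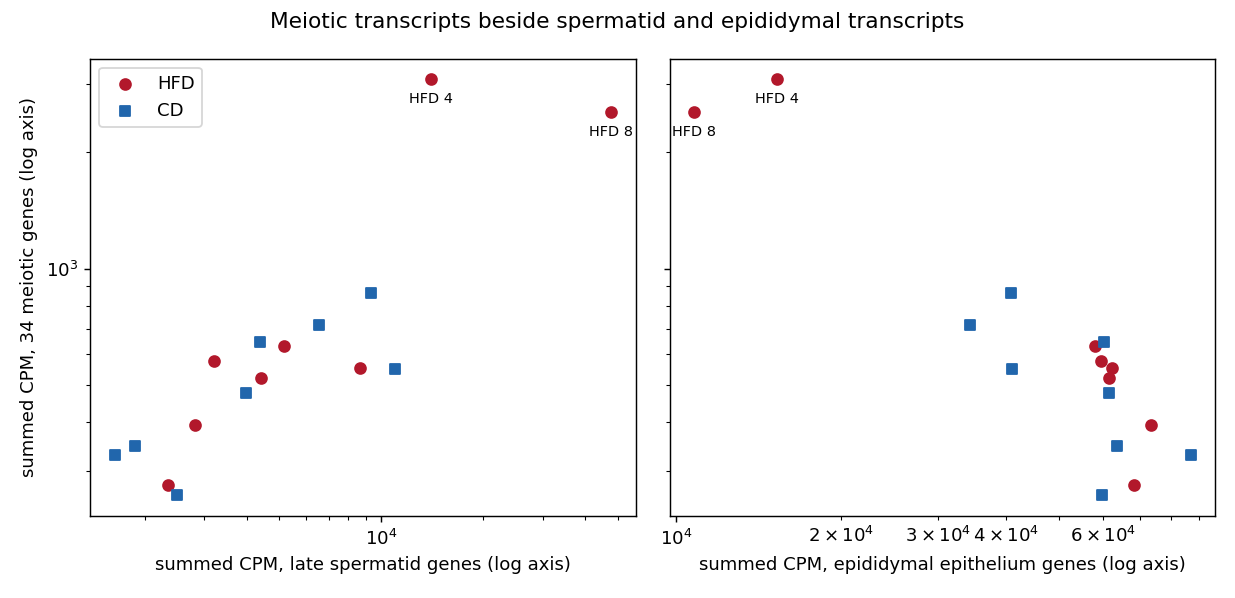
Summed CPM of the 34 meiotic genes (vertical, log axis) against the summed CPM of 15 late spermatid genes (left) and of 16 epididymal genes (right; log axes), 1 point per library, HFD circles and CD squares. HFD 4 and HFD 8 lie highest for meiotic genes and lowest for epididymal genes, and HFD 8 lies farthest right for late spermatid genes.

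Sums of Sertoli, Leydig and spermatogonial markers in HFD 4 and HFD 8 were inside or below the range of the other libraries, while single markers and the leukocyte sum were highest there. Sertoli cell genes came to 16.7 CPM (HFD 4) and 57.5 CPM (HFD 8), against 25.5 to 78.8 CPM elsewhere, with 3 of 11 genes tested. Within that list, Amh and Fshr were at 0 in every library, while HFD 8 was the highest library for Inhbb at 19.9 CPM, Aard at 17.8 CPM and Gata4 at 7.67 CPM. In HFD 4, 8 of the 11 were at 0, and in HFD 8, 4 were. Leydig cell genes summed to 29.2 and 65.5 CPM, against 45.7 to 129 CPM elsewhere, with 3 of 8 tested. Within that list, 5 genes were at 0 in HFD 4 and 3 in HFD 8, among them Insl3 and Lhcgr, which had counts in CD 1 alone. HFD 8 was the highest library for Hsd3b1 at 19.2 CPM and Cyp11a1 at 8.72 CPM, and HFD 4 for Hsd3b6 at 8.33 CPM. Spermatogonial genes summed to 81.5 and 67.3 CPM, against 58.2 to 296 CPM elsewhere, with 4 of 14 tested and Sohlh1 and Lin28a at 0 throughout. Gfra1 alone gave 56.5 and 40.1 CPM of these sums. HFD 8 was the highest library for Id4 at 8.37 CPM, Sohlh2 at 2.44 CPM and Uchl1 at 2.09 CPM. HFD 4 was the highest for Etv5 at 14.9 CPM, while 6 of the 14 were at 0 in HFD 4 and 6 in HFD 8. Leukocyte genes summed to 1146 and 1515 CPM, against 258 to 1068 CPM elsewhere, with 10 of 11 tested and 0 of the 11 at 0 in these libraries. The part of leukocyte, Sertoli and Leydig cell RNA, of epididymal RNA and of the lower share of reads in genes in these results was not tested.

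Other meiotic genes, from a separate list of 55, moved less evenly. Of 46 with a row, 32 were tested and 0 passed the threshold. Log2 fold changes were above 0 for 21 and below 0 for 11, and their median was 0.12. Without HFD 4 and HFD 8, 15 of 32 were positive, with a median of -0.02. Its 3 most abundant genes were Mael, Hspa2 and Smc3. Mael, which acts in piRNA silencing, had 2002 CPM in HFD 4 and 1199 CPM in HFD 8, against 75.8 to 374.5 CPM elsewhere, with a log2 fold change of 1.36 ± 0.59 (SE; edgeR adjusted p = 0.434). Hspa2, a chaperone of the synaptonemal complex, had 1918 and 864 CPM, against 54.1 to 282 CPM elsewhere, with a log2 fold change of 1.57 ± 0.62 (SE; edgeR adjusted p = 0.434). Both values lost their size without the 2 libraries, at -0.03 for Mael and 0.0030 for Hspa2. Smc3, a cohesin subunit of all dividing cells, had 468 and 229 CPM, against 89.6 to 206 CPM elsewhere, with a log2 fold change of 0.28 ± 0.28 (SE; edgeR adjusted p = 0.744), and -0.14 without HFD 4 and HFD 8.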

How the data were processed

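Read counts per gene symbol were deposited by the authors as raw whole numbers, 1 column per library, and its 5 summary entries entered neither library sizes nor tests. Tools named in the submitters' processing notes, without role or order, are DESeq2 1.0.19, HTSeq 1.0.0 and STAR, with mm10 as the build. Gene annotation and strand setting were not given in the sources used here. Labels give diet alone, no batch, and the series describes each diet as 8 mice. No pair of libraries of a diet agreed within sampling noise (chi-square per degree of freedom 12.7 to 172 over 56 pairs).

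Diets were compared over all genes with edgeR 4.0.16 in R 4.3.3: quasi-likelihood F-test with robust estimation, TMM factors, default expression filter by diet, two-sided, Benjamini-Hochberg adjustment over 13149 genes, threshold 0.05. CPM were computed from the deposited counts with TMM-scaled totals of the genes that passed the filter. Lengths and overlaps are from GENCODE M21 (GRCm38, the assembly of mm10) and promoters from RefSeq. The test was checked on simulated data. Alternatives used DESeq2 1.42.0, limma 3.58.1, other scalings and filters, a block and fewer libraries.

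The members and lists were chosen with earlier results of these data known, so lists were described by counts and medians with no test. Values are given for the most abundant tested member of each role per length, the 5 with the smallest p and the 5 most abundant; Tex15, Mybl1, Sycp1, Sycp2 and genes under the filter were singled out after their values were seen. The p-values measure the spread between these libraries, and count limits cover counting error alone. Amplification from little RNA makes copies that counts cannot tell from separate molecules. Protein sequences were not used here.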

Additional observations from a re-analysis of the deposited data

Results flagged for a closer look

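In 60 sets of 8 libraries, formed from the 21 tested genes, the sums of the 34 genes and of 7 roles, and the ratio to late spermatid transcripts, 9 had a highest library far above the others by Dixon's 95% criterion. Chance flags about 1 in 20 such sets where values spread normally, but the criterion was applied to CPM without logs. The sets share libraries, and the sums contain the single genes. The 9 flags can therefore not be measured against that rate.

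HFD 4 gave 5 of these: 353 CPM of Tex15 (next 77.8 CPM), 228 CPM of Psmc3ip (next 99.0), 76.8 CPM of Spdya (next 37.7), 51.2 CPM of Rec8 (next 23.4) and 587 CPM summed over strand exchange genes (next 188). HFD 8 was set apart by 97.6 CPM of Mybl1, with HFD 3 next at 37.6 CPM. Among CD libraries, CD 5 held 278 CPM of Syce2 (next 134) and 351 CPM over transverse filament and central element genes (next 196), and CD 3 held 18.4 CPM of Prdm9 (next 8.18). Causes of these values were not tested.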

How the results depend on the processing

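The count of 0 members past the threshold held under every alternative run. Over all genes, DESeq2 called 1 and edgeR and limma-voom 0, with 1820 (DESeq2), 1482 (edgeR) and 500 (limma-voom) at an unadjusted p under 0.05. Members at that p numbered 8, against 0 with limma-voom and quality weights, 5 with library totals, 0 with title numbers as a block and 0 without HFD 4 and HFD 8, and 0 to 11 with each library left out. Members with positive values numbered 20, against 13 with limma-voom and 12 without HFD 4 and HFD 8, and 19 to 20 with each library left out. The median was 0.54 to 1.14 with each library left out and 0.15 with limma-voom. With limma-voom, signs turned for Hormad1 (-0.23), Hormad2 (-0.22), Sycp1 (-0.074), Syce2 (-0.22), Syce3 (-0.033), Rec8 (-0.17), Mlh3 (0.11), Mybl1 (-0.024) and Boll (-0.12). Without HFD 4 and HFD 8 they turned for Sycp2 (-0.30), Hormad1 (-0.39), Hormad2 (-0.62), Syce2 (-0.61), Syce3 (-0.16), Rec8 (-0.46), Mlh3 (0.093), Brdt (-0.055), Ccna1 (-0.21) and Boll (-0.33). Hormad2 ran from -0.25 (without HFD 8) to 0.49 with each library left out. Log2 ratios of summed CPM without HFD 4 and HFD 8 were -0.090 for all members (1.04 with all libraries), -0.20 for axis genes (1.20), 0.065 for cohesins (1.45), -0.046 for progression (1.05), 0.085 for strand exchange (1.31) and -0.36 for transverse filament and central element (0.96). Break formation and crossover genes are not among these ratios and did not show the same drop. Break formation genes averaged 13.975 CPM in HFD with all libraries and 9.4335 CPM ± 4.8854 in CD (SD). Without HFD 4 and HFD 8 their HFD mean was 14.065 CPM ± 11.023 (SD). Crossover genes averaged 60.66 CPM in HFD, 65.411 CPM without the 2 libraries, and 64.84 CPM in CD. The cause of the changes in sign and ratio beyond the removal of 2 libraries was not tested.

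Title numbers did not pair the libraries: same-numbered deviations correlated from -0.40 to 0.61, 4 of 8 over 0.1, and 2 of 8 HFD libraries correlated best with their own number. As a block they gave a median of 0.54 and 0 calls. Genes with few counts, such as Dmc1, can be compared only down to 0.397 to 1.79 CPM, the level of 3 counts.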

Other observations

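Among cohesin subunits, chosen after their values were seen, the mitotic forms went the other way from the meiotic forms in HFD 4 and HFD 8. Smc1a, the general counterpart of Smc1b, had 32.7 CPM in HFD 4 and 37.0 CPM in HFD 8, against 49.6 to 128.6 CPM in the other 14 libraries. Rad21, the general counterpart of Rec8 and Rad21l, had 82.7 and 98.3 CPM, against 126 to 228 CPM. By diet, Smc1a averaged 70.3 CPM ± 31.1 in HFD and 97.6 CPM ± 21.8 in CD (SD, n = 8 each), a log2 fold change of -0.47 ± 0.26 (SE; edgeR adjusted p = 0.502), and -0.24 without HFD 4 and HFD 8. Smc3, which all cohesin complexes share, was high in HFD 4 at 468 CPM.

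Taf7l, an X-linked transcription factor subunit of germ cells, had the largest log2 fold change of the separate meiotic list. It averaged 17.1 CPM ± 21.4 in HFD and 3.41 CPM ± 2.55 in CD (SD, n = 8 each), a log2 fold change of 2.30 ± 0.66 (SE; edgeR adjusted p = 0.434), and 1.01 without HFD 4 and HFD 8.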
